A study of Homo sapiens with 9 samples.

Results

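FOXA1, FOXA2, FOXA3, CEBPA, ONECUT1, PROX1, GATA4 and GATA6 were taken by gene symbol as transcription factors of the hepatocyte lineage. They are 8 of the 58735 genes counted. The choice did not use their measured values, but it was made with earlier results of these data known. Messenger RNA was sequenced from 9 cultures of Huh-7, a human hepatoma line that secretes apolipoprotein B on lipoproteins. The 3 control libraries came from the unedited line (genotype WT), 3 came from Ako-3, a clone that carries a CRISPR/Cas9 knockout of APOB, and 3 came from Mko-3, a clone that carries a knockout of MTTP. MTTP encodes the protein that loads lipid onto nascent apolipoprotein B. Cultures of all groups were grown in DMEM with serum and then kept without serum overnight before RNA was taken, and the labels call the 3 libraries of a group biological replicates. Only 1 clone was sequenced for each knockout and both clones were set against the same control libraries, so the edit and any other difference that arose in a clone cannot be told apart.

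These factors work as a network in liver cells. The FOXA proteins are forkhead factors that bind closed chromatin and open it for others, and the GATA zinc finger factors act beside them when the liver forms from the foregut endoderm. CEBPA, a basic leucine zipper factor, drives metabolic genes of the mature hepatocyte and restrains proliferation. ONECUT1, also called HNF6, is a cut homeodomain factor of the hepatic and biliary lineages, and PROX1 is a homeodomain factor of early hepatoblasts that remains in hepatocytes.

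The libraries held between 14638727 and 20179760 counts assigned to genes. APOB transcripts were lower in Ako-3 (log2 fold change -1.36) and MTTP transcripts were lower in Mko-3 (-2.88), each in the clone labelled as its knockout. Libraries of Ako-3 had 7.06 to 7.40% of their counts on mitochondrial genes, against 5.52 to 6.17% in Huh-7 and 5.75 to 5.82% in Mko-3, and the part of this in the results below was not tested. Scaling by the total count alone moved the median log2 fold change of all genes to -0.10 in Ako-3. It also turned the calls at both thresholds there from 556 higher and 789 lower to 437 higher and 984 lower. The same scaling moved the median to -0.078 in Mko-3 versus Huh-7. Calls there went from 602 higher and 1137 lower to 497 higher and 1288 lower.

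All 8 factors were expressed in every library, with at least 424 counts each, and all passed the filter on low counts. Levels of different genes were compared as FPKM, that is, read fragments scaled to gene length and sequencing depth, as deposited. In Huh-7, CEBPA had the highest level of the 8 at 92.9 ± 8.46 FPKM (SD, n = 3), followed by FOXA2 at 74.2 ± 4.65 FPKM. GATA4 (35.5 ± 2.20 FPKM), GATA6 (30.2 ± 1.87 FPKM) and PROX1 (21.6 ± 2.63 FPKM) came next, and the libraries of neighbours in this order did not overlap. FOXA1 (15.05 ± 1.56 FPKM) and FOXA3 (15.03 ± 2.11 FPKM) overlapped, and ONECUT1 was lowest at 10.5 ± 1.24 FPKM. Among the 836 genes above 1 FPKM in Huh-7 that the tables place in a transcription factor family, CEBPA ranked 16 and ONECUT1 ranked 198.

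The order changed little between the groups. CEBPA, FOXA2, GATA4 and GATA6 held the first 4 places in all 3 groups. In Ako-3, FOXA1, PROX1 and FOXA3 followed at 19.6, 19.3 and 18.0 FPKM, with overlapping libraries between neighbours, and ONECUT1 was last at 11.9 FPKM. In Mko-3, PROX1 (22.8 FPKM) overlapped GATA6 (23.6 FPKM), and ONECUT1 (13.8 ± 1.27 FPKM) stood above FOXA3 (12.4 ± 0.36 FPKM) with no overlap.

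**Figure D1:**
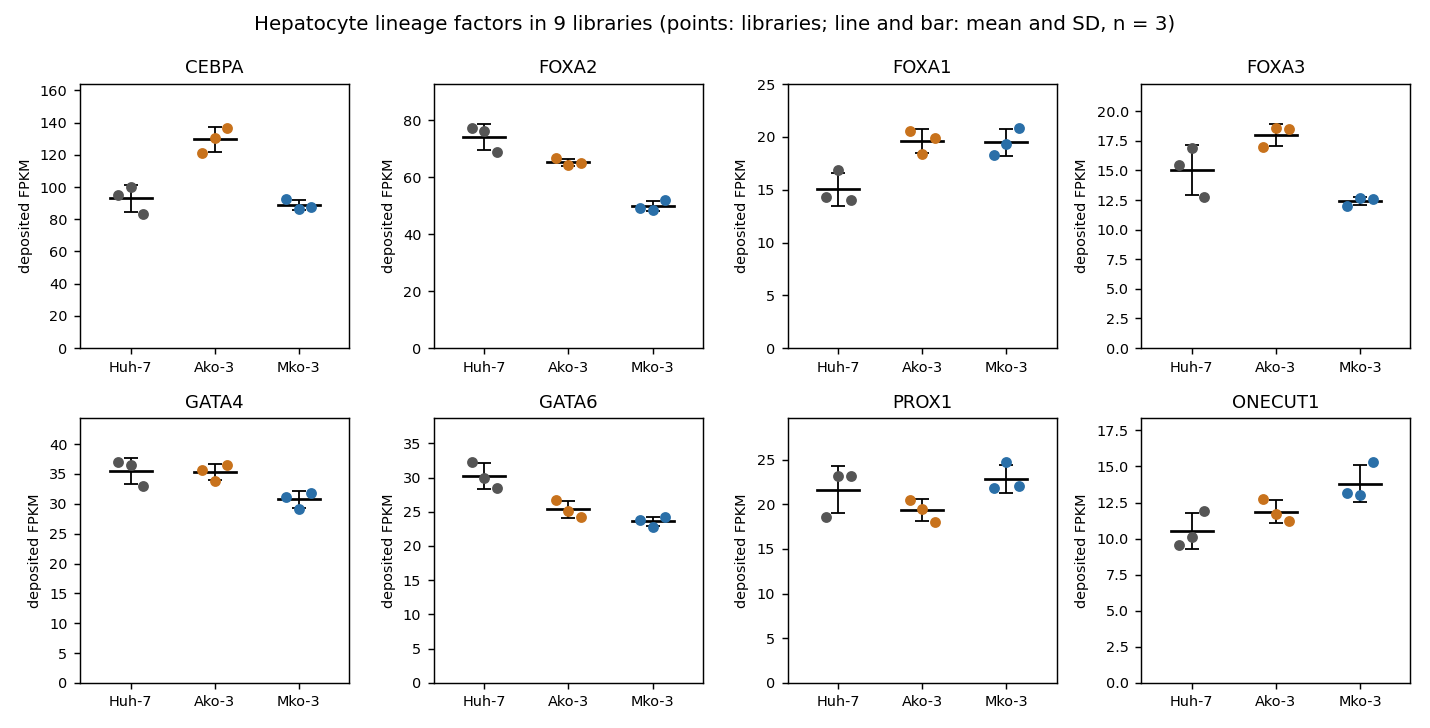
Deposited FPKM of the 8 factors (vertical axes, each from 0) in the 3 libraries of each group, with the mean and SD. CEBPA stands at 121 to 137 FPKM in Ako-3 and below 101 in every other library, while the FOXA2 libraries of the 3 groups form separate levels, highest in Huh-7 and lowest in Mko-3.

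Changes were tested with edgeR's quasi-likelihood test, in which p-values were adjusted over all genes tested in a comparison. A gene was called where the adjusted p was at most 0.05 and the absolute log2 fold change at least 1, which is a doubling or halving. None of the 8 factors was called in any of the 3 comparisons, where 8.52% of 15787 tested genes were called in Ako-3 versus Huh-7, 11% of 15745 in Mko-3 versus Huh-7 and 5.73% of 15528 in Mko-3 versus Ako-3. DESeq2 called none either. At an unadjusted p under 0.05 edgeR had 5, 6 and 7 of the 8 factors in the same order of comparisons. The share of all genes under that unadjusted p was not counted, and it is at least the share given next for the adjusted p. These 3 counts are therefore not read as a result about the factors. By the adjusted p alone, which 49.9%, 54% and 41.6% of all genes passed in the 3 comparisons, 3 factors were higher and 2 lower in Ako-3 than in Huh-7, where 25.5% of all genes were higher and 24.4% lower. In Mko-3, 2 were higher and 4 lower than in Huh-7 (26.9% and 27.1% of all genes). Against Ako-3, 2 factors were higher and 4 lower in Mko-3 (21.1% and 20.6% of all genes). Among tested genes that the tables place in a transcription factor family, 17.9% were higher and 35% lower in Ako-3 than in Huh-7, 17.3% and 33.9% in Mko-3, and 21.2% and 18.8% in Mko-3 relative to Ako-3. The median absolute log2 fold change of the 8 factors was 0.22, 0.32 and 0.22 in the 3 comparisons, and that of all genes tested was 0.31, 0.34 and 0.21.

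**Figure D2:**
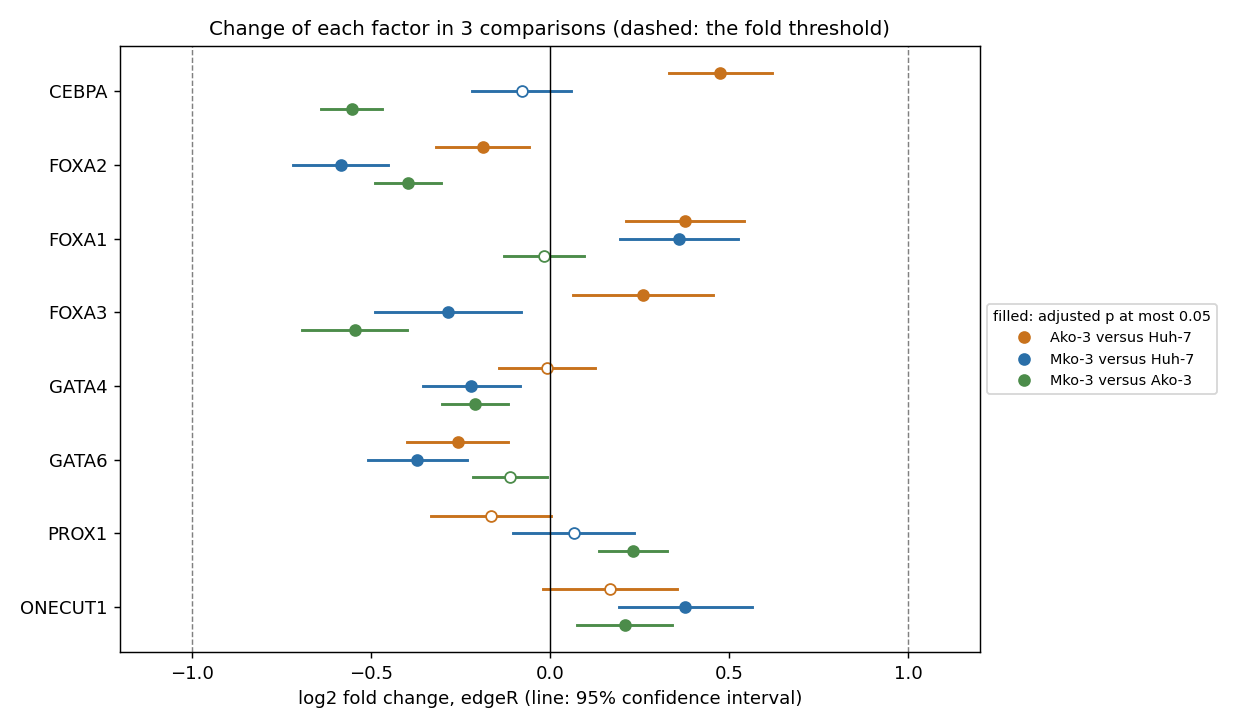
Log2 fold change of each factor with its 95% confidence interval (horizontal axis) in the 3 comparisons, filled where the adjusted p was at most 0.05. Each interval lies between the dashed lines at -1 and 1; CEBPA is highest in Ako-3 versus Huh-7 at 0.48, and FOXA2 is lowest in Mko-3 versus Huh-7 at -0.58.

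CEBPA (ENSG00000245848) is a single-exon gene on the minus strand of chromosome 19, from 33299934 to 33302564 on hg38. Its levels were 95.2, 99.99 and 83.6 FPKM in the Huh-7 libraries, 121, 130 and 137 FPKM in Ako-3, and 92.3, 86.5 and 87.5 FPKM in Mko-3. Every Ako-3 library was above every other library, and those of Huh-7 and Mko-3 overlapped. CEBPA rose 1.39-fold in Ako-3 over Huh-7 (95% CI 1.26 to 1.54, log2 fold change 0.48, SE 0.069, adjusted p = 9.36e-06 by edgeR). In Mko-3 it did not pass the test against Huh-7, with a fold of 0.948 (95% CI 0.861 to 1.04, adjusted p = 0.336), although it did without Huh-7 library 3 (log2 fold change -0.15, adjusted p = 0.0479 by edgeR). The direct comparison of the clones gave a log2 difference of -0.55 in Mko-3 relative to Ako-3 (SE 0.042, adjusted p = 6.79e-19 by edgeR).

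The stretch just upstream of the CEBPA gene model is shown because a noncoding gene on the other strand, CEBPA-DT, starts 292 bases away and its RNA was counted separately. It is 220 bases long with 82.3% G and C, is taken from the RefSeq promoter table (GRCh38.p14, chr19:33302565-33302784, minus strand) and is written 5′ to 3′ along the gene. Capitals mark GC boxes, GGGCGG on either strand.
CEBPA: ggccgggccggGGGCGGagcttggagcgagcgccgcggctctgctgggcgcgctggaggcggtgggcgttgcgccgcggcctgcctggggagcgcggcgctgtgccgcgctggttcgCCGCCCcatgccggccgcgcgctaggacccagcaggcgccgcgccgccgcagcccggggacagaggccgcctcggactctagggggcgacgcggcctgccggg

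None of the other C/EBP genes tested rose in either clone. Of 12 genes listed as relatives of the 8 factors (CEBPB, CEBPD, CEBPE, CEBPG, DDIT3, ONECUT2, ONECUT3, PROX2, GATA1, GATA2, GATA3 and GATA5), 7 were tested. In Ako-3, 5 of the 7 fell and none rose by the adjusted p, and in Mko-3 6 fell and none rose. Of all genes, 24.4% were lower and 25.5% higher in Ako-3 by the adjusted p, and 27.1% and 26.9% in Mko-3. CEBPB, a C/EBP factor of the acute phase and stress responses, fell by 0.75 on the log2 scale in Ako-3 (adjusted p = 1.61e-08) and by 1.29 in Mko-3 (adjusted p = 2.58e-12). CEBPG, a partner without an activation domain of its own, fell by 0.91 and 1.08 (adjusted p = 4.02e-09 and 9.94e-11). DDIT3, the stress factor CHOP, fell by 1.67 and 1.72 (adjusted p = 1.21e-11 and 4.34e-11), which made it the 1 relative called in Ako-3 and, with CEBPB and CEBPG, 1 of 3 called in Mko-3. CEBPD fell by 0.67 in Mko-3 (adjusted p = 9.34e-08) and stood at -0.061 in Ako-3 (adjusted p = 0.483), all by edgeR.

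Within a library, ratios of FPKM do not depend on the scaling between libraries. CEBPA had 0.395 ± 0.012 times the FPKM of CEBPB in Huh-7, 0.924 ± 0.031 times in Ako-3 and 0.912 ± 0.029 times in Mko-3 (SD, n = 3 each). The clones overlapped in this ratio and both stood apart from Huh-7. CEBPA made up 14.0 ± 0.51% of the summed FPKM of the C/EBP genes in Huh-7, 23.5 ± 1.02% in Ako-3 and 23.3 ± 0.24% in Mko-3. In Ako-3 the ratio was higher with more CEBPA and less CEBPB, and in Mko-3 with less CEBPB beside a CEBPA level that overlapped the control. No test was run on the ratios, which are given as descriptions.

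FOXA2 (ENSG00000125798; chromosome 20, 22581005 to 22585455, minus strand), a regulator of endoderm and of fasting metabolism in liver, was the forkhead gene of the 3 with the highest level in every library. Its levels were 77.4, 76.3 and 68.9 FPKM in Huh-7, 66.7, 64.2 and 65.1 FPKM in Ako-3, and 49.1, 48.6 and 52.1 FPKM in Mko-3. No groups overlapped, where 57.8% of all genes did not overlap between Ako-3 and Huh-7, 60.7% between Mko-3 and Huh-7 and 49.6% between the clones. FOXA2 fell to 0.667 of the control level in Mko-3 (95% CI 0.608 to 0.731, log2 fold change -0.58, SE 0.064, adjusted p = 1.30e-07 by edgeR) and to 0.760 of the Ako-3 level (95% CI 0.713 to 0.810, adjusted p = 2.10e-11 by edgeR). In Ako-3 it fell to 0.878 of the control level (95% CI 0.802 to 0.961, adjusted p = 0.0170 by edgeR). That smaller change missed the threshold without Huh-7 library 1 (adjusted p = 0.0538), Ako-3 library 2 (0.0910) or Ako-3 library 3 (0.0695). It also missed it without the low-count filter (0.0564), with the replicate block (0.0523) and with limma on unfiltered FPKM (0.0682).

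FOXA1 (ENSG00000129514; chromosome 14, 37589984 to 37596059, minus strand), which shares its DNA-binding forkhead domain with FOXA2, rose in both clones. Its levels were 14.3, 16.8 and 14.0 FPKM in Huh-7, 20.6, 18.3 and 19.9 FPKM in Ako-3, and 18.3, 19.3 and 20.9 FPKM in Mko-3. All knockout libraries were above all control libraries, and the clones overlapped. FOXA1 was 1.30-fold higher in Ako-3 than in Huh-7 (95% CI 1.16 to 1.46, adjusted p = 4.64e-04) and 1.28-fold higher in Mko-3 (95% CI 1.145 to 1.44, adjusted p = 6.17e-04), by edgeR. Between the clones the fold was 0.989 with a 95% CI of 0.915 to 1.07 (adjusted p = 0.845 by edgeR).

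FOXA3 (ENSG00000170608; chromosome 19, 45863989 to 45873797, plus strand), the forkhead gene of the 3 tied most to the differentiated liver, went opposite ways in the clones. Its levels were 15.4, 16.9 and 12.7 FPKM in Huh-7, 17.0, 18.6 and 18.5 FPKM in Ako-3, and 12.01, 12.69 and 12.56 FPKM in Mko-3. Huh-7 lay between the clones and nearly touched each of them, its highest library at 16.91 FPKM against 16.95 for the lowest of Ako-3, and its lowest at 12.74 against 12.69 for the highest of Mko-3. The difference between the clones, a log2 difference of -0.54 in Mko-3 relative to Ako-3 (SE 0.074, adjusted p = 2.78e-09 by edgeR), kept its side of the threshold in every setting run. The changes from Huh-7 were less firm, with folds of 1.198 in Ako-3 (95% CI 1.05 to 1.37, adjusted p = 0.0253) and 0.821 in Mko-3 (95% CI 0.713 to 0.945, adjusted p = 0.0179), by edgeR. With DESeq2 neither passed (adjusted p = 0.0525 and 0.0636), nor did either with any of the 3 limma settings (0.0955 to 0.161 in Ako-3 and 0.0858 to 0.145 in Mko-3). The Ako-3 change also missed the threshold with upper-quartile scaling (0.0600) and total-count scaling (0.142). In Ako-3 the call was lost without Huh-7 library 3 (0.169), Ako-3 library 2 (0.0861) or Ako-3 library 3 (0.0866), and in Mko-3 without Huh-7 library 2 (0.1004), Mko-3 library 1 (0.0796) or Mko-3 library 3 (0.0570).

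FOXA2 made up less of the FOXA transcripts in both clones than in Huh-7. FOXA2 had 4.95 ± 0.44 times the FPKM of FOXA1 in Huh-7, 3.34 ± 0.14 times in Ako-3 and 2.57 ± 0.11 times in Mko-3 (SD, n = 3 each), with no overlap between any groups. As a share of the summed FPKM of the 3 FOXA genes, FOXA2 took 71.2 ± 1.63% in Huh-7, 63.5 ± 0.53% in Ako-3 and 61.0 ± 0.79% in Mko-3. FOXA1 took 14.4 ± 1.00%, 19.0 ± 0.82% and 23.8 ± 0.71%, and FOXA3 took 14.4 ± 1.02%, 17.5 ± 1.10% and 15.2 ± 0.54%. FOXA1 and FOXA3 were level in Huh-7, with a ratio of 1.007 ± 0.086, and FOXA1 had 1.57 ± 0.082 times the FPKM of FOXA3 in Mko-3. A FOXA1 gene model shares 213 bases with TTC6 on the opposite strand, which had 76 to 130 counts a library. FOXA2 shares 3257 bases with AL121722.1 on its own strand, and CEBPA shares 1235 bases with AC008738.3 and 662 with AC008738.5 on the other strand. These 3 genes had no counts in any library, and how reads in shared bases were assigned was not tested, so the FPKM levels, ranks and ratios of FOXA2 and CEBPA hold for the reads as counted.

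**Figure D3:**
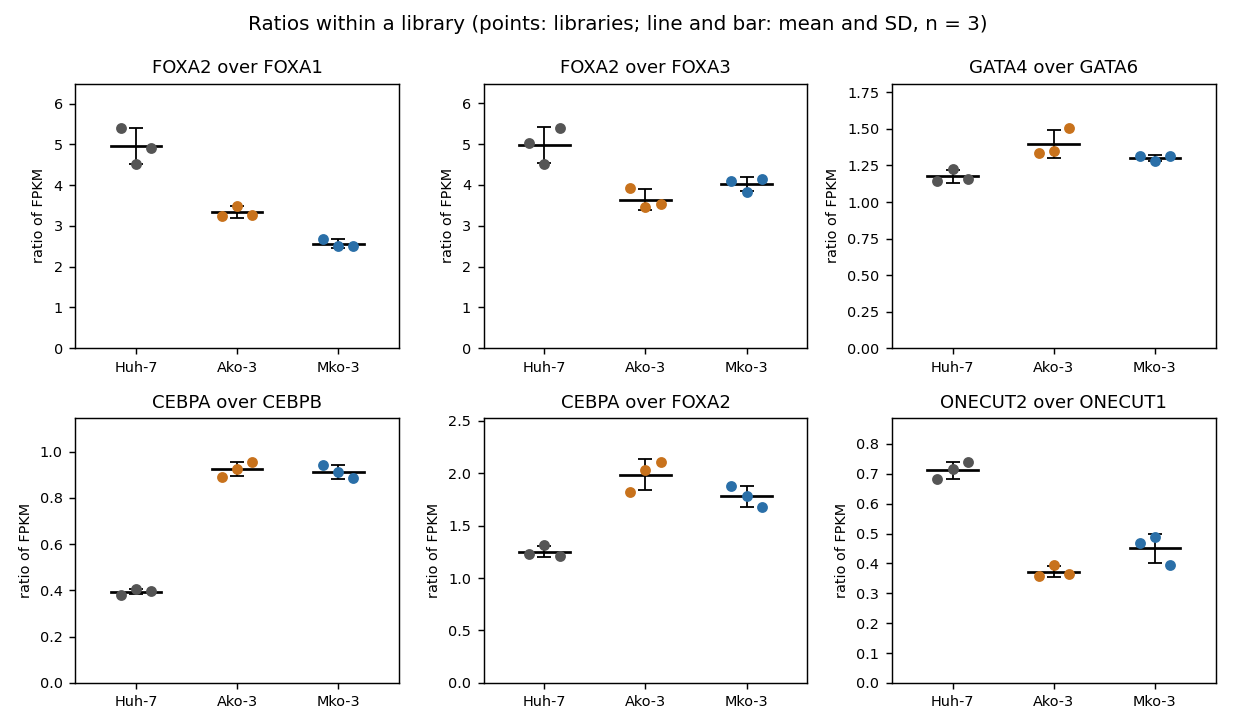
Ratios of FPKM between pairs of factors inside each library (vertical axes, from 0), with the mean and SD of 3 libraries per group. FOXA2 over FOXA1 steps down from 4.95 in Huh-7 to 3.34 in Ako-3 and 2.57 in Mko-3, and CEBPA over CEBPB is near 0.9 in both clones against 0.395 in Huh-7.

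GATA4 (ENSG00000136574; chromosome 8, 11676959 to 11760002, plus strand), a zinc finger factor of early liver and heart, differed in Mko-3 only by a small amount. Its levels were 36.9, 36.5 and 32.9 FPKM in Huh-7, 35.6, 33.9 and 36.6 FPKM in Ako-3, and 31.2, 29.2 and 31.8 FPKM in Mko-3. The Mko-3 libraries were below all others, and Ako-3 overlapped Huh-7. GATA4 fell to 0.859 of the control level in Mko-3 (95% CI 0.783 to 0.943, adjusted p = 7.07e-03 by edgeR), which missed the threshold without Mko-3 library 2 (adjusted p = 0.0711) and with limma on unfiltered FPKM (0.0599). It fell to 0.865 of the Ako-3 level (95% CI 0.811 to 0.923, adjusted p = 1.53e-04 by edgeR). In Ako-3 versus Huh-7 the fold was 0.994 with a 95% CI of 0.906 to 1.09.

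GATA6 (ENSG00000141448; chromosome 18, 22169443 to 22202528, plus strand), which overlaps GATA4 in function during endoderm development, fell in both clones. Its levels were 32.2, 29.9 and 28.5 FPKM in Huh-7, 26.7, 25.1 and 24.2 FPKM in Ako-3, and 23.7, 22.8 and 24.2 FPKM in Mko-3. All control libraries were above all knockout libraries. GATA6 fell to 0.837 of the control level in Ako-3 (95% CI 0.759 to 0.923, adjusted p = 3.45e-03) and to 0.774 in Mko-3 (95% CI 0.704 to 0.852, adjusted p = 7.59e-05), by edgeR. Between the clones it was 0.926 in Mko-3 relative to Ako-3 (95% CI 0.862 to 0.994, adjusted p = 0.0765 by edgeR), which passed without Ako-3 library 3 (0.0330) or with upper-quartile scaling (0.0438). GATA4 had 1.17 ± 0.042 times the FPKM of GATA6 in Huh-7, 1.40 ± 0.096 times in Ako-3 and 1.30 ± 0.021 times in Mko-3, again without overlap.

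The stretch before the GATA6 gene model, 104 bases of the RefSeq table (GRCh38.p14, chr18:22169339-22169442, plus strand), is shown because an antisense gene reaches into it. Capitals mark the 34 bases that lie in an exon of GATA6-AS1 in the GENCODE release 44 annotation, where the antisense gene is read from the other strand.
GATA6: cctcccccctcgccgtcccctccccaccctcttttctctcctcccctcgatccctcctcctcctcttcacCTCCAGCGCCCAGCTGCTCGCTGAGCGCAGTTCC
RefSeq promoter windows (250 bases before to 50 after the start) were at hand for 5 of the 8 genes, FOXA1, ONECUT1, GATA6, CEBPA and FOXA3. None of the 5 windows held, on either strand, the forkhead letters TGTTTAC (in 3.42% of all 35116 windows), the C/EBP letters TTGCNNAA (10.5%) or the ONECUT letters ATTGAT (6.26%). The same was true of the GATA letters AGATAA (10.3% of all windows) and of their variant TGATAA (7.53%). GGGCGG was in 4 of the 5 windows (45% of all windows), CCAAT in those of ONECUT1 and GATA6 (34.6%), and TATAAA in those of CEBPA and FOXA3 (11.5%), at 30 bases before the start in both.

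ONECUT1 (ENSG00000169856; chromosome 15, 52756989 to 52791078, minus strand) was highest in Mko-3. Its levels were 9.54, 10.1 and 11.9 FPKM in Huh-7, 12.8, 11.7 and 11.2 FPKM in Ako-3, and 13.13, 13.03 and 15.28 FPKM in Mko-3. The Mko-3 libraries were above all others, and those of Ako-3 overlapped Huh-7. ONECUT1 rose 1.30-fold in Mko-3 over Huh-7 (95% CI 1.14 to 1.48, log2 fold change 0.38, SE 0.090, adjusted p = 1.22e-03 by edgeR). In Ako-3 the fold was 1.12 (95% CI 0.988 to 1.28, adjusted p = 0.124 by edgeR), which passed without Huh-7 library 3 (log2 fold change 0.27, adjusted p = 0.0178). Mko-3 was 1.16-fold above Ako-3 (95% CI 1.055 to 1.267, adjusted p = 7.52e-03 by edgeR), a call lost without Ako-3 library 3 (0.0559) or Mko-3 library 3 (0.142), in the fit of all 9 libraries (0.0536) and with limma.

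ONECUT2, the close relative of ONECUT1, fell by 0.77 on the log2 scale in Ako-3 (adjusted p = 8.03e-06) and by 0.29 in Mko-3 (adjusted p = 0.0100), by edgeR. The smaller fall was lost without Huh-7 library 3 (0.0627) or Mko-3 library 3 (0.0519), and with the 3 limma settings (0.106 to 0.172). ONECUT2 had 0.712 ± 0.029 times the FPKM of ONECUT1 in Huh-7, 0.373 ± 0.019 times in Ako-3 and 0.451 ± 0.049 times in Mko-3. The lowest Mko-3 library (0.396) and the highest Ako-3 library (0.394) were side by side in this ratio, and Huh-7 was far above both. ONECUT3 had at most 1 count in any library. GATA3 was lower by 0.87 and 0.73 on the log2 scale in Ako-3 and Mko-3 (adjusted p = 1.02e-05 and 4.27e-05 by edgeR), at 2.41 to 5.30 FPKM over all libraries.

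PROX1 (ENSG00000117707; chromosome 1, 213983181 to 214041502, plus strand) did not pass the test against Huh-7 in either clone. Its levels were 18.6, 23.1 and 23.2 FPKM in Huh-7, 20.5, 19.5 and 18.0 FPKM in Ako-3, and 21.8, 24.7 and 22.0 FPKM in Mko-3. Huh-7 library 1 was at the level of Ako-3, and the other control libraries were at the level of Mko-3. The fold was 0.892 in Ako-3 (95% CI 0.795 to 1.002, adjusted p = 0.0964) and 1.05 in Mko-3 (95% CI 0.932 to 1.177, adjusted p = 0.501), by edgeR. Without Huh-7 library 1 the log2 fold change in Ako-3 was -0.26 (adjusted p = 2.48e-03), and it also passed with upper-quartile scaling (-0.21) and total-count scaling (-0.26). Between the clones PROX1 was 1.17-fold higher in Mko-3 (95% CI 1.099 to 1.255, adjusted p = 5.69e-05 by edgeR), a call lost with limma on unfiltered FPKM (0.0771).

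Noncoding genes lie beside several of the factors, and 4 of 5 listed ones were in the tables. CEBPA-DT, GATA6-AS1 and PROX1-AS1 were tested, and LINC00261, 2362 bases from FOXA2, had at most 5 counts in any library. GATA6-AS1 fell by 0.75 on the log2 scale in Ako-3 (adjusted p = 2.67e-05) and by 1.10 in Mko-3 (adjusted p = 1.17e-07), where it was called. PROX1-AS1 fell by 0.70 and 0.77 (adjusted p = 6.76e-05 and 6.42e-06), although PROX1 itself passed in neither clone. CEBPA-DT fell by 0.81 in Mko-3 (adjusted p = 7.53e-07) and stood at -0.14 in Ako-3 (adjusted p = 0.220), where CEBPA rose. All are edgeR values.

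Counts of these noncoding genes were 149 to 428 a library, well below those of the factors. GATA6-AS1 had 428, 287 and 361 counts in Huh-7, 188, 280 and 193 in Ako-3, and 187, 149 and 154 in Mko-3. CEBPA had 9.24 ± 0.64 times the FPKM of CEBPA-DT in Huh-7, 14.2 ± 0.62 times in Ako-3 and 15.4 ± 0.94 times in Mko-3. GATA6 had 4.70 ± 0.30, 6.69 ± 0.92 and 7.82 ± 0.73 times the FPKM of GATA6-AS1 in the same order, and PROX1 had 11.5 ± 1.29, 16.6 ± 1.34 and 20.4 ± 1.13 times that of PROX1-AS1 (SD, n = 3 each). In all 3 pairs both clones stood above Huh-7 with no overlap. GATA6 and GATA6-AS1 share 436 bases and PROX1 and PROX1-AS1 share 5328 bases on opposite strands, and reads from the shared bases cannot be told apart without strand. PROX1 also shares 2627 bases with AC011700.1 and 2011 with AL606537.1 on the other strand, with at most 26 counts a library. GATA6 also shares 1910 bases with AC091588.3 and 1198 with AC091588.1 there, with at most 19 counts. The FPKM levels, ranks and ratios of GATA6 and PROX1 therefore hold for the reads as counted.

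**Figure D4:**
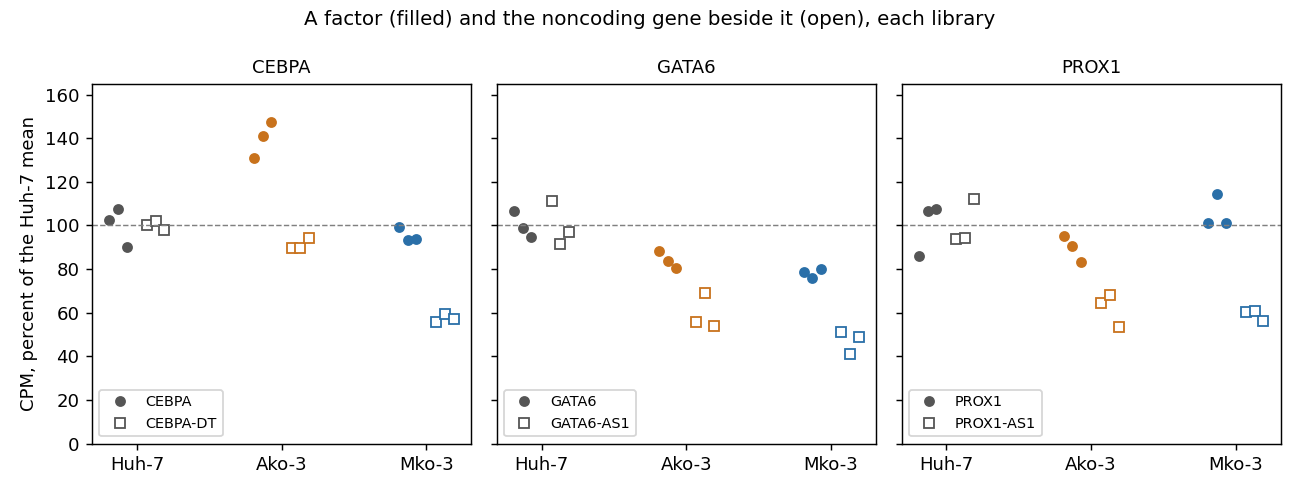
TMM-scaled CPM (counts scaled to a common library size) of CEBPA, GATA6 and PROX1 (filled) and of the noncoding gene beside each (open) in every library, as a percent of the Huh-7 mean. CEBPA-DT is at 55.9 to 59.2% in Mko-3, where CEBPA is at 93.3 to 99.3%, and PROX1-AS1 is at 53.6 to 68.4% in the clones, where PROX1 is at 83.5 to 114%.

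Other genes within 1 Mb of the factors were looked at as a description. Around FOXA3, 46 neighbours were tested in Ako-3 versus Huh-7 and their median log2 fold change was 0.21, while FOXA3 had 0.26. Of 45 neighbours tested between the clones, 33 were lower in Mko-3, 1 was higher and 11 did not pass, with a median of -0.27 against 0.0048 for all genes. By the adjusted p, 20.6% of all genes tested between the clones were lower in Mko-3 and 21.1% were higher. In Mko-3 versus Huh-7 the median of 45 neighbours was -0.046, where FOXA3 had -0.28. Around CEBPA, the median of 21 neighbours was -0.11 in Ako-3, where CEBPA had 0.48. Between the clones it was -0.17, with 9 of the 21 lower and none higher in Mko-3, where CEBPA had -0.55. Around FOXA2, the median of 5 neighbours was 0.093 in Mko-3, where FOXA2 had -0.58. GATA4 had -0.22 in Mko-3 versus Huh-7 beside a median of -0.16 for 9 neighbours, and GATA6 had -0.37 beside -0.038 for 10. ONECUT1 had 0.38 there beside -0.13 for 15 neighbours, but 0.21 between the clones beside 0.14 for 13. PROX1 had 0.23 between the clones beside 0.071 for 7 neighbours. FOXA1 had 0.38 in Ako-3 versus Huh-7 beside -0.22 for 2.

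Transcripts of genes whose proteins work with these factors showed small changes, and none of the 9 tested of 11 listed was called. By the adjusted p, 1 was higher and 3 were lower in Ako-3, and 4 were higher and 3 lower in Mko-3. The shares of all genes were 25.5% higher and 24.4% lower in Ako-3, and 26.9% and 27.1% in Mko-3. TRIB1, a pseudokinase that directs C/EBP proteins to degradation, fell by 0.70 on the log2 scale in Ako-3 (adjusted p = 8.29e-07) and by 0.61 in Mko-3 (adjusted p = 2.28e-06). TLE3, a corepressor of the Groucho family, fell by 0.29 and 0.56 (adjusted p = 4.67e-04 and 1.14e-07). Its relative TLE1 fell by 0.37 in Ako-3 (adjusted p = 4.98e-05) and TLE2 fell by 0.53 in Mko-3 (adjusted p = 4.54e-05). ZFPM1, a cofactor of GATA proteins, rose by 0.42 in Mko-3 (adjusted p = 1.30e-04) and by 0.23 in Ako-3 (adjusted p = 0.0219), the latter lost without Huh-7 library 3 (0.126), Ako-3 library 1 (0.0601) or Ako-3 library 3 (0.0611). The ZFPM1 change in Ako-3 was also lost with upper-quartile scaling (0.0676), total-count scaling (0.164) and the 3 limma settings (0.0657 to 0.0966). Apart from the limma settings, all are edgeR values.

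Beside the 8 factors, 19 further regulators of liver genes were listed and all were tested. In Ako-3, 4 were higher, 9 lower and 6 did not pass, and in Mko-3, 3 were higher, 12 lower and 4 did not pass. Among tested genes of a transcription factor family, 17.9% were higher and 35% lower in Ako-3, and 17.3% and 33.9% in Mko-3. HNF4A, a nuclear receptor at the centre of the hepatocyte network, rose by 0.70 on the log2 scale in Ako-3 (adjusted p = 3.41e-09) and by 0.30 in Mko-3 (adjusted p = 1.07e-04). HHEX, a homeobox gene of the liver bud, rose by 0.99 and 0.82 (adjusted p = 3.37e-10 and 2.42e-09). ATF5 rose by 1.81 and 1.42 (adjusted p = 2.60e-08 and 8.71e-07) from 50 to 54 counts a library in Huh-7.

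MLXIPL had the smallest adjusted p of the regulators that fell in Mko-3. This gene, which encodes the carbohydrate-responsive factor ChREBP, fell by 0.64 in Ako-3 (adjusted p = 1.89e-06) and by 2.13 in Mko-3 (adjusted p = 7.32e-13). KLF15, a factor of fasting metabolism, fell by 0.59 and 1.83 (adjusted p = 2.89e-06 and 4.22e-12). HLF, of the circadian PAR bZIP family, fell by 0.69 and 1.02 (adjusted p = 5.24e-07 and 2.00e-09), and its relative DBP fell by 1.30 in Mko-3 (adjusted p = 2.64e-08). NR1H4, the bile acid receptor FXR, fell by 0.41 and 0.98 (adjusted p = 3.49e-05 and 1.95e-09). The 4 called lower in Mko-3 were MLXIPL, KLF15, DBP and HLF, with ATF5 the 1 called higher in each clone, all by edgeR.

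Genes for hepatocyte products, many of them textbook targets of these factors, were mostly higher in Ako-3 and mostly lower in Mko-3 where they passed the test. Of 31 listed, 28 were tested in Ako-3, where 17 were higher, 1 was lower and 10 did not pass, with a median log2 fold change of 0.39 against -0.0087 for all genes. In Mko-3, 3 of 27 were higher, 12 lower and 12 did not pass, with a median of -0.31. Directly compared, 2 of 28 were higher and 22 lower in Mko-3 than in Ako-3, 9 of the 22 past both thresholds, with a median of -0.77. By the adjusted p alone, 25.5% of all genes were higher and 24.4% lower in Ako-3, and 26.9% and 27.1% in Mko-3. Between the clones these shares were 21.1% and 20.6%, with 5.73% of all genes past both thresholds.

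HP, haptoglobin, rose by 1.53 on the log2 scale in Ako-3 (adjusted p = 3.54e-12) and fell by 1.65 in Mko-3 (adjusted p = 1.30e-10). APOH rose by 1.23 and fell by 0.54 (adjusted p = 3.90e-12 and 2.16e-06), and AHSG rose by 0.90 and fell by 0.96 (adjusted p = 7.81e-10 and 9.21e-11). APOA2 rose by 1.02 in Ako-3 (adjusted p = 3.64e-11) and had a log2 fold change of 0.032 in Mko-3. OTC, of the urea cycle, rose by 1.92 and 1.09 (adjusted p = 3.82e-11 and 3.17e-07). PCK1, of gluconeogenesis, fell by 2.03 in Mko-3 (adjusted p = 8.04e-11), FGG by 1.25 (adjusted p = 4.79e-12) and the asialoglycoprotein receptor gene ASGR1 by 1.12 (adjusted p = 4.34e-11). In Ako-3, PCK1 and FGG did not pass (-0.14 and -0.029) and ASGR1 fell by 0.25 (adjusted p = 4.81e-03), all by edgeR. The ASGR1 call in Ako-3 was lost with limma on unfiltered FPKM (0.0709).

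**Figure D5:**
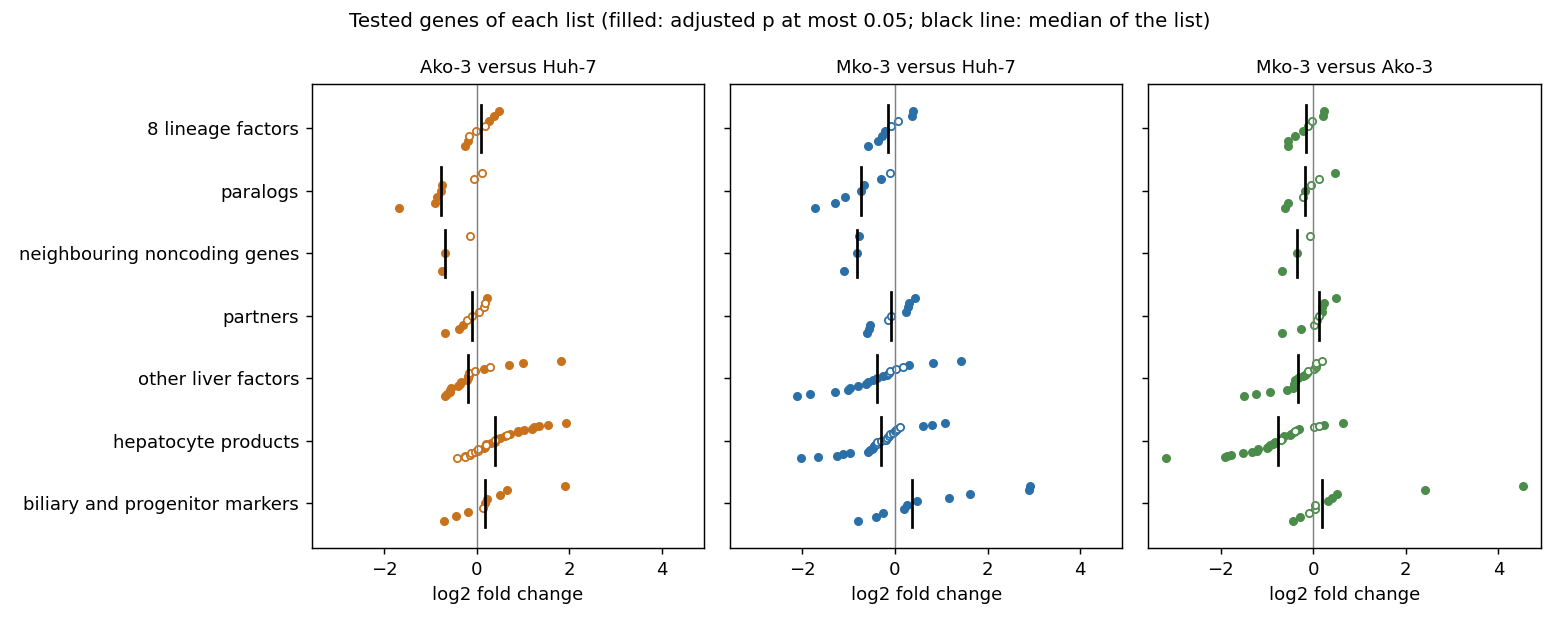
Log2 fold change (horizontal axis) of every tested gene of 7 lists in the 3 comparisons, filled where the adjusted p was at most 0.05, with the median of each list as a black line. The 8 lineage factors stay within 0.58 of 0, while hepatocyte products have a median of 0.39 in Ako-3 and -0.31 in Mko-3.

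Markers of other cell types were looked at as well. Of 12 markers of the biliary and progenitor lineages, 9 were tested in Ako-3 and 10 in Mko-3. By the adjusted p alone, 5 were higher and 3 lower in Ako-3, where 25.5% of all genes were higher and 24.4% lower. In Mko-3, 7 were higher and 3 lower (26.9% and 27.1% of all genes). KRT19, a keratin of bile duct cells, rose by 2.92 on the log2 scale in Mko-3 (adjusted p = 1.82e-16), from 3.98 to 4.01 FPKM in Huh-7 to 29.0 to 31.3 FPKM. SPP1 rose by 2.89 in Mko-3 (adjusted p = 1.05e-08) from 7 to 14 counts a library, and was not tested in Ako-3. EPCAM rose by 0.66 in Ako-3 and 1.17 in Mko-3 (adjusted p = 7.86e-07 and 4.26e-11), LGR5 by 1.90 and 1.62 (adjusted p = 2.85e-06 and 4.43e-06), and CD24 by 0.47 in Mko-3 (adjusted p = 3.40e-07). SOX9 fell by 0.45 and 0.41 (adjusted p = 9.55e-06 and 1.36e-05) and SALL4 by 0.71 and 0.81 (adjusted p = 9.59e-06 and 1.40e-06), all by edgeR. KRT7 and DLK1 had no counts in any library. In RNA from whole cultures, fewer cells of a type and less RNA per cell cannot be told apart, and the part of these markers in the changes of the 8 factors was not tested.

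Markers of blood vessels, stroma and immune cells were low. The 8 endothelial markers summed to 7.30 to 14.6 FPKM a library, most of it PECAM1. In Mko-3 the means were 6.53 FPKM for PECAM1 and 1.06 FPKM for CDH5. PECAM1 rose by 0.44 in Ako-3 and fell by 0.61 in Mko-3 (adjusted p = 2.61e-05 and 5.55e-07 by edgeR). KDR had no counts and VWF at most 5. CDH5 did not pass against Huh-7 in either clone. It was higher in Mko-3 than in Ako-3 by edgeR, a call lost with the 3 limma settings (adjusted p = 0.0850 to 0.167). The 7 mesenchymal markers summed to 0.645 to 1.07 FPKM, COL1A2 fell by 3.12 and 3.10 (adjusted p = 1.20e-04 and 1.58e-07 by edgeR) from 43 to 77 counts a library in Huh-7, and PDGFRB did not pass. COL1A2 had 0 to 15 counts a library in Ako-3 and 5 to 8 in Mko-3. Its log2 fold change in Ako-3 was between -4.39 (without Ako-3 library 2) and -2.58 when 1 library was left out. The 6 immune markers summed to 2.84 to 5.93 FPKM, of which CD14 rose by 0.80 in Ako-3 (adjusted p = 1.37e-04 by edgeR), and PTPRC had at most 2 counts. ALB (1803 to 2644 FPKM) and AFP (1025 to 1911 FPKM), defining products of hepatocytes and their fetal precursors, were high in every library. The 2 moved apart in Mko-3. Mean ALB was 2547 FPKM in Huh-7, 2595 in Ako-3 and 1833 in Mko-3, and mean AFP was 1050, 1168 and 1840 FPKM in the same order.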

How the data were processed

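Poly(A) RNA of 9 Huh-7 cultures was sequenced as paired-end reads. Per the labels and the study's methods, the authors aligned reads to hg38 with HISAT2 (version 2.0.5) and made the deposited gene counts with featureCounts (version 1.5.0-p3); the strand setting is not given in the sources used here. The FPKM values deposited by the authors are these counts divided by gene length and 1 constant per library. Each comparison was fitted on its 6 libraries with edgeR (version 4.0.16): TMM scaling, filterByExpr with a minimum count of 10, robust quasi-likelihood F test, Benjamini-Hochberg adjustment over all genes tested. The SE was taken from the log2 fold change and its F statistic. DESeq2 (version 1.42.0), limma (version 3.58.1) on log2(FPKM + pseudocount of 1 or 0.1), other scalings and filters, a replicate block and leaving out each library were alternatives. The fits were also run on simulated counts with known changes. The simulated spread and changes were set rather than taken from these libraries. The run therefore does not show how well small changes of the factors are recovered.

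All members and lists were chosen with earlier results of these data known. Named were all 8 factors, and of every other list up to 4 genes with the smallest adjusted p in each comparison with Huh-7, plus called relatives, partners and noncoding genes; DBP, GATA3, ALB, AFP and markers without counts were named after their values were seen. No factor was called, so no genes of like pattern are named. Groups were taken from the labels, and p-values measure the spread between 3 libraries of the same cells.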

Additional observations from a re-analysis of the deposited data

Results flagged for a closer look

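For 6 of the 8 factors the change from Huh-7 differed between the clones by a direct edgeR test of Mko-3 against Ako-3, which 41.6% of all 15528 genes tested passed. The count was 4 to 7 across settings, with ONECUT1 lost in the fit of all 9 libraries and with limma. The 4 came from limma on unfiltered log2(FPKM + 1), where 4047 of 30045 genes passed. The 7 came with upper-quartile scaling, where 6456 of 15528 genes passed. The log2 difference, Mko-3 relative to Ako-3, was -0.55 for CEBPA, -0.54 for FOXA3, -0.40 for FOXA2 and -0.21 for GATA4, and it was 0.23 for PROX1 and 0.21 for ONECUT1. CEBPA passed against Huh-7 in Ako-3 but not in Mko-3, FOXA3 went up in Ako-3 and down in Mko-3, and PROX1 passed against Huh-7 in neither. The FOXA3 changes from Huh-7 did not pass with DESeq2 or limma in either clone. FOXA1 and GATA6 did not pass between the clones.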

How the results depend on the processing

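No setting called any of the 8 factors in any comparison. The count past the adjusted p was between 3 and 5 in Ako-3 versus Huh-7 when 1 library was left out. Between 6566 of 16252 and 8346 of 16231 genes passed in those fits. It was 3 with limma on unfiltered log2(FPKM + 1), where 5645 of 30488 genes passed. Over all settings the count of factors was 4 to 7 in Mko-3 versus Huh-7 and 4 to 7 in Mko-3 versus Ako-3, against 6 in each. The 7 came without Huh-7 library 3 (7641 of 16046 genes passed) and with upper-quartile scaling (6456 of 15528), in that order. The 4 came from limma on unfiltered log2(FPKM + 1), where 6517 of 30466 and 4047 of 30045 genes passed. Genes called over the whole table went to 841, 1113 and 511 (Ako-3 versus Huh-7, Mko-3 versus Huh-7, Mko-3 versus Ako-3) when 10 counts were required in every library, to 347, 479 and 213 with limma on log2(FPKM + 1), and to 332, 454 and 210 without its filter. Signs turned only for values near 0 that never passed the test. GATA4 in Ako-3 was 0.00012 with DESeq2, 0.014 without the low-count filter, and between -0.055 and 0.027 when 1 library was left out. PROX1 in Mko-3 was -0.00083 with total-count scaling, added after seeing the data, and between -0.029 and 0.13 when 1 library was left out. FOXA1 between the clones was 0.0092 with total-count scaling and between -0.065 and 0.029 when 1 library was left out. Correlations of deviations were -0.12 to 0.094 for same-numbered libraries of different groups and -0.11 to 0.12 for the others. The deviations were taken inside groups of 3 libraries, so a weak pairing could be missed. The labels do not say whether the numbers pair the cultures, and the main fits used no pairing. The replicate block gave 1336, 1730 and 899 genes called and lost the adjusted-p pass of 1 factor, FOXA2 in Ako-3 (adjusted p = 0.0523). The cause of these shifts was not tested. The order of the 8 factors by level stayed as with deposited FPKM in every group for TMM-scaled counts per length and for FPKM by total count, 8 of 8 at the same rank each time.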
